A study of Mus musculus with 16 samples.

Results

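The collagen genes were examined in the cerebellum of mice that lack Atm and in wild-type (WT) mice, with and without nicotinamide riboside (NR). A gene was counted as a collagen gene where its symbol is Col, a number, the letter a and a number, and its probes were found through the accessions on the arrays. This gave 44 of 22911 named genes, measured by 67 of 56605 probes. They comprised 11 fibrillar genes, 6 type IV genes, 6 type VI genes and 21 genes of other classes.

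Collagens are secreted proteins in which separate chains wind into a triple helix. Fibrillar collagens (types I, II, III, V, XI, XXIV and XXVII) pack into cross-linked fibres, type IV forms the sheet-like network of basement membranes around vessels and under the pia, and type VI forms beaded filaments next to cells. In the brain, fibrillar collagens are made chiefly by fibroblasts of the meninges and of large vessels, and type IV by endothelial and mural cells, while the tissue between neurons holds little fibrous collagen.

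All mice came from the B6;129S4-Atmtm1Bal/J line, in which Atm-/- animals are homozygous for a disrupted Atm allele in every cell and WT animals are their littermates. From an age of 6 weeks they drank water alone (veh) or water with NR, a precursor of NAD+, at 3.5 mg/ml (12 mM) for 2 months, and they were 3.5 months old when cerebellar RNA was taken. The groups are called WT veh and WT NR for the wild type, and Atm-/- veh and Atm-/- NR for the mutant. Each had 4 mice and 4 arrays of 1 colour (Cy3). Values are log2 signals after quantile normalization, and an array is named by its group and replicate number.

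Several facts on the arrays bear on the results. The slides each held 1 genotype, whose effect therefore cannot be told apart from that of the slide, and veh and NR arrays lay in different rows of a slide, so treatment and row cannot be told apart either. The scanner software placed 34945 to 42559 probes per array well above background. The ranges were 37843 to 42559 in WT veh, 36402 to 40010 in WT NR, 39134 to 41905 in Atm-/- veh and 34945 to 37817 in Atm-/- NR. Every Atm-/- NR array was thus below every Atm-/- veh array, and the part of this in the differences was not tested. Of 2 Atm probes, 1 read 8.52 to 9.03 on the WT arrays and 7.72 to 8.08 on the Atm-/- arrays, and the other overlapped between genotypes. All mice are labelled male, but 4 arrays (Atm-/- NR 4, Atm-/- veh 3, WT NR 1 and WT NR 4) had no signal of Y-linked genes, and calls lost without these 4 are named as such. The 10 kept markers of cerebellar neurons were well above background on all 16 arrays. WT veh 4 stood apart from the others, as its markers of choroid plexus epithelium were on average 4.41 above their means over all arrays (log2) and its markers of forebrain neurons 4.24 above. On the other 15 arrays these lists read at most 0.69 and 1.56. Differences from WT veh that turned their sign or moved by over 1.5 times without this array are given with and without it.

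The 250 bases before the annotated start are shown for 4 genes: Col1a2 and Col3a1, fibrillar chains whose signals varied together over the arrays, and Col6a5 and Col9a2, the collagen genes that passed the test in a comparison. The sequences are RefSeq's (GRCm38.p6), 5′ to 3′ in the direction of the gene, and capitals mark 3 motifs on either strand. These are the TATA box letters TATAAA, the letters CCAAT of the CCAAT box, and the GC box letters GGGCGG.
Col1a2, chr6:4505368-4505617 (+ strand): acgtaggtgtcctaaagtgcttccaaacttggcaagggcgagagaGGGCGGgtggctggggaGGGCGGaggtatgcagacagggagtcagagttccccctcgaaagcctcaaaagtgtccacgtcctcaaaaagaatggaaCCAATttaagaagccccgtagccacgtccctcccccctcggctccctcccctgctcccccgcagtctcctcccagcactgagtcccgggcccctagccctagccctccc
Col3a1, chr1:45311288-45311537 (+ strand): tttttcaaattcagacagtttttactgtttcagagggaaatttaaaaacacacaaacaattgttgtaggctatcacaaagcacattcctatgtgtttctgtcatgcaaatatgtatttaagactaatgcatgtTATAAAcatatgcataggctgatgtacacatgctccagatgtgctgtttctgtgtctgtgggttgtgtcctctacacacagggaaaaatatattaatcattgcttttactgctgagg
Col6a5, chr9:105960644-105960893 (- strand): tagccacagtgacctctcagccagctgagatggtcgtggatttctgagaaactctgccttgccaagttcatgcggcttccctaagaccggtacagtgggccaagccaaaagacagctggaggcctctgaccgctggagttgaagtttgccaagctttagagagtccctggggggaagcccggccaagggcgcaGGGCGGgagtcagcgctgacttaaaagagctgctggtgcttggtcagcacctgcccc
Col9a2, chr4:121039316-121039565 (+ strand): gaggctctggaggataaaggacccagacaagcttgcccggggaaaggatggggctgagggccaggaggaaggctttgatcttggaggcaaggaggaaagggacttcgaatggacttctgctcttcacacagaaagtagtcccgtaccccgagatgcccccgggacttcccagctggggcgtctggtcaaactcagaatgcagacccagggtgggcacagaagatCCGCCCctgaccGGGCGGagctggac
The Col3a1 window held TATAAA, which begins 117 bases before the start, and neither of the other motifs. The Col1a2 window held CCAAT (109 bases before the start) and GGGCGG in 2 places (205 and 188 bases). Col6a5 and Col9a2 had neither TATAAA nor CCAAT, and held GGGCGG in 1 and 2 places. Over windows of the same length, TATAAA was in 12.4% of 32851, CCAAT in 33.8% and GGGCGG in 32.7%. Among 38 windows of 35 collagen genes, the 3 motifs were found in 5, 13 and 22. A match of letters is not a binding site. Col4a1 and Col4a2 lie on opposite strands with annotated starts 21 bases apart, and the starts of Col4a5 and Col4a6, also on opposite strands, lie 1343 bases apart.

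Of the 44 genes, 37 had a probe that every array of some group (4 of 4) detected and were tested, each by its brightest such probe. Detection required that a share of 0.5 or more of a probe's spots stood well above background. All 16 arrays detected 32 of the genes. The 7 that were not kept were Col4a3 and Col4a4 (type IV), Col6a6 (type VI), Col24a1 (fibrillar), Col15a1, a proteoglycan of basement membranes, Col10a1, a collagen of growth plate cartilage, and Col28a1. Their best probes were above background on between 1 and 4 arrays. Kept genes below 16 arrays were Col5a2 (13), Col25a1 and Col6a4 (12 each), Col14a1 (10) and Col6a5 (9). Passing the filter only through the group where a gene is bright makes a difference likely, which holds for Col6a5, above background on all 4 arrays of Atm-/- NR alone. Col14a1 passed only through Atm-/- veh, with 4 arrays above background there and 0 in Atm-/- NR. Its mean was 4.61 in Atm-/- veh and higher, 4.80, in WT NR. The lowest signal among probes well above background was 4.69 to 5.34 on the Atm-/- NR arrays, so the detection of Col14a1 alone shows no fall there.

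Type VI collagen is built from the chains of Col6a1 and Col6a2 with a further chain, that of Col6a3 or of one of its relatives Col6a4, Col6a5 and Col6a6. Col6a5 had the widest range of the class. Its log2 signals were 6.77, 6.89, 2.55 and 4.73 on the WT veh arrays, 3.05, 6.19, 2.47 and 6.01 on those of WT NR, 2.57, 2.31, 3.25 and 3.54 for Atm-/- veh and 7.85, 6.20, 7.40 and 6.69 for Atm-/- NR. All Atm-/- NR arrays lay above all Atm-/- veh arrays, while WT veh and WT NR each held high and low arrays. The probe was above background on 3 WT veh arrays, 2 WT NR arrays, 0 Atm-/- veh arrays and 4 Atm-/- NR arrays. In Atm-/- NR against Atm-/- veh, Col6a5 had a fitted difference of 4.12 ± 0.98 (SE, log2, adjusted p = 0.0221, limma). The probe entered the test only through the Atm-/- NR arrays, which makes such a difference likely, so this p is no independent support. As no Atm-/- veh array was above background, the change is given as a bound, at least 11.1-fold higher, taking for the dim group the higher of each array's own value and its lowest signal among probes well above background. That lowest signal ran from 3.32 to 3.71 on the Atm-/- veh arrays and from 4.69 to 5.34 on the Atm-/- NR arrays. The size of the bound belongs to the background correction used. After normexp, which adds an offset to dim signals, the fitted difference was 1.54 (adjusted p = 0.0123, limma). Against WT NR, the Atm-/- NR arrays were again all higher, by 2.61 ± 0.98 (adjusted p = 0.862), which did not pass the test.

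The genotype comparison without NR gave -2.32 ± 0.98 (adjusted p = 0.303, limma) for Col6a5, which did not pass the test. With the same floor for the dim group, the Atm-/- veh mean was 3.19-fold lower than the WT veh mean, which includes 1 array not above background. As WT veh 3 (2.55) lay within the Atm-/- veh range (2.31 to 3.54), this is no firm bound. Over the alternatives the fitted difference ran from -3.21 to -0.78, the last with normexp. The NR effect in Atm-/- minus that in WT was 4.92 ± 1.38 (adjusted p = 0.839). A second, dimmer Col6a5 probe, which was not kept, was above background on 2 Atm-/- NR arrays and on 0 others, and its signal had r = 0.818 with the first over 16 arrays, where both probes share each array's RNA. The call of Col6a5 was lost with the arrays that have Y-gene signal (4.35, adjusted p = 0.0835), without Atm-/- veh 1 (4.004, adjusted p = 0.0663) and without Atm-/- NR 3 (3.998, adjusted p = 0.0657).

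Col6a1 and Col6a2, the core chains, did not pass the test in any comparison. Col6a1 read 10.48, 9.85, 10.23 and 11.83 on the WT veh arrays, 9.67, 9.56, 9.52 and 9.36 on those of WT NR, 10.23, 10.09, 10.49 and 9.996 for Atm-/- veh and 9.32, 9.39, 10.24 and 9.36 for Atm-/- NR. Every WT NR array was below every WT veh array, and Atm-/- NR lay below Atm-/- veh on 3 of 4 arrays, with Atm-/- NR 3 alone inside the Atm-/- veh range. The difference of WT NR from WT veh was -1.07 ± 0.33 (adjusted p = 0.522), and -0.66 ± 0.22 (adjusted p = 0.377) without WT veh 4. That of Atm-/- NR from Atm-/- veh was -0.63 ± 0.33. Neither passed the test.
Col6a2 read 6.77, 6.76, 7.11 and 7.94 on the WT veh arrays, 6.001, 6.31, 8.67 and 6.17 on those of WT NR, 6.94, 6.15, 7.06 and 6.11 for Atm-/- veh and 5.38, 6.42, 7.52 and 5.69 for Atm-/- NR. WT NR 3 (8.67) stood far above the next array of its group (6.31), and the groups overlapped in every comparison. Col6a3, the long chain that joins the other two, read 6.92, 6.78, 7.29 and 7.93 on the WT veh arrays, 6.08, 6.84, 7.33 and 7.005 on those of WT NR, 6.71, 6.73, 6.50 and 6.78 for Atm-/- veh and 6.33, 6.68, 7.28 and 6.03 for Atm-/- NR. The Atm-/- veh arrays were all below the WT veh arrays by a narrow margin, with a difference of -0.55 ± 0.30, or -0.32 ± 0.30 without WT veh 4. A second, dimmer probe of Col6a3 went the other way in each group comparison (0.12 for this one, with all arrays).
Col6a4, a chain related to Col6a3, read 5.29, 4.92, 5.20 and 9.23 on the WT veh arrays, 5.01, 4.99, 4.69 and 5.08 on those of WT NR, 4.54, 6.39, 7.58 and 5.32 for Atm-/- veh and 5.09, 5.72, 5.15 and 5.24 for Atm-/- NR. WT veh 4 and, to a lesser degree, Atm-/- veh 3 were high, and the other arrays lay within 4.54 to 6.39. In WT NR against WT veh its difference was -1.22 ± 0.81 (adjusted p = 0.775), and -0.19 ± 0.51 without WT veh 4. All Atm-/- NR arrays lay above all WT NR arrays, at 0.36 ± 0.81. The Col6a4 probe was above background on 2 arrays of each of these groups, so this order rests on signals near background. The lowest signal among probes well above background was 4.18 to 5.01 on the WT NR arrays and 4.69 to 5.34 on the Atm-/- NR arrays.
The median difference of the 5 type VI genes was -0.81 in WT NR against WT veh and -0.19 without WT veh 4, so most of its size rested on 1 array. In Atm-/- veh against WT veh it was -0.55, and -0.31 without that array, when 3 of 5 genes had a negative difference in place of 5. The medians were -0.31 in Atm-/- NR against Atm-/- veh, with 4 of 5 negative and Col6a5 positive, and 0.05 in Atm-/- NR against WT NR. Over the alternatives these 2 ran from -0.61 to 0.02 and from -0.24 to 0.30, and so turned their sign.

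**Figure D1:**
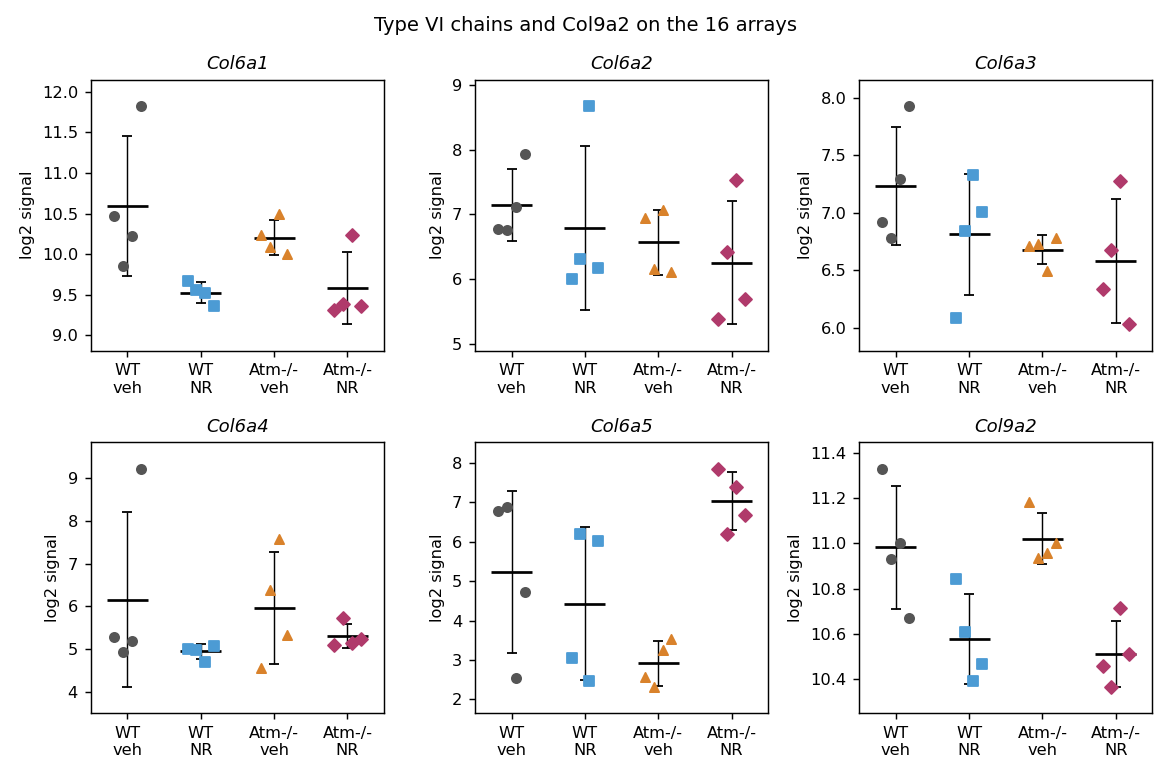
Log2 signal (y axis) of the 5 kept type VI genes and Col9a2 on each array, by group (x axis), with the mean as a line and the SD as bars. Col6a5 lies between 6.20 and 7.85 on the Atm-/- NR arrays and between 2.31 and 3.54 on the Atm-/- veh arrays, and WT veh 4 is the highest array for Col6a1 (11.83), Col6a3 (7.93) and Col6a4 (9.23).

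Fibril-associated collagens sit on the surface of fibres, and type IX, made of the Col9a1, Col9a2 and Col9a3 chains, coats type II fibres in cartilage. Col9a2 read 11.33, 10.93, 11.001 and 10.67 on the WT veh arrays, 10.84, 10.61, 10.39 and 10.47 on those of WT NR, 11.18, 10.94, 10.96 and 11.003 for Atm-/- veh and 10.46, 10.36, 10.71 and 10.51 for Atm-/- NR. All Atm-/- NR arrays lay below all Atm-/- veh arrays. Col9a2 fell by 0.51 ± 0.13 in Atm-/- NR against Atm-/- veh (log2; adjusted p = 0.0336, limma). In WT NR against WT veh the difference was -0.41 ± 0.13 (adjusted p = 0.547), and between the genotypes it was 0.04 ± 0.13 in veh (-0.07 ± 0.13 without WT veh 4). The call was lost in 8 of 26 alternatives, in which the adjusted p ran from 0.0524 to 0.105 and the difference from -0.58 to -0.45. Those were the arrays with Y-gene signal and the removal of any 1 Atm-/- array other than Atm-/- veh 2.

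Its partner chains did not pass the test. Col9a1 had a difference of 0.66 ± 0.21 in Atm-/- NR against Atm-/- veh (adjusted p = 0.0632), with groups that did not overlap, from 6.03 to 6.86 in Atm-/- veh and from 6.89 to 7.46 in Atm-/- NR. Col9a3 had 0.07. Without WT veh 4, Col9a1 (0.66, adjusted p = 0.0484, limma) and the transmembrane collagen gene Col17a1 (-0.46, adjusted p = 0.0371) also passed, when 15.1% of all genes were called. WT veh 4 is in neither group of this comparison and both differences were unchanged. Only the estimate of the spread, shared by all groups, and the adjustment differed. Col22a1, which is found where tissues join, was called by its dimmer probe (0.86, adjusted p = 0.0363; 9.04% of all probes called), while its brighter probe gave -0.12. Among the other genes of the class, Col19a1 had -1.02 ± 0.41 (adjusted p = 0.129), and Col12a1, Col16a1 and Col20a1 had differences between -0.25 and -0.18 in the same comparison.

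No fibrillar gene passed the test in any comparison. Type I collagen, the main protein of fibres, holds chains of Col1a1 and Col1a2. Col1a1 read 9.65, 9.28, 9.58 and 9.94 on the WT veh arrays, 9.37, 9.56, 9.17 and 8.88 on those of WT NR, 9.31, 9.20, 9.31 and 9.21 for Atm-/- veh and 8.97, 10.54, 9.98 and 9.12 for Atm-/- NR. The highest array was Atm-/- NR 2 and the lowest WT NR 4, and the groups overlapped. Col1a2 read 12.83, 12.60, 12.83 and 12.95 on the WT veh arrays, 12.41, 12.62, 12.44 and 12.08 on those of WT NR, 12.47, 12.47, 12.83 and 12.60 for Atm-/- veh and 12.30, 12.78, 12.90 and 12.25 for Atm-/- NR. Only WT NR 2 of the WT NR arrays reached into the range of WT veh, with a difference of -0.42 ± 0.16 (adjusted p = 0.586) in WT NR against WT veh, the largest for Col1a2. Col3a1, which forms fibres together with type I collagen, read 8.81, 8.47, 8.71 and 8.63 on the WT veh arrays, 8.37, 8.76, 8.31 and 8.16 on those of WT NR, 8.38, 8.03, 8.55 and 8.24 for Atm-/- veh and 8.22, 8.66, 9.33 and 7.66 for Atm-/- NR. Its extremes, 9.33 and 7.66, were both in Atm-/- NR.
Col5a2, a chain of the type V collagen that starts type I fibres, was the fibrillar gene with the largest difference in each group comparison. It read 5.42, 4.77, 4.77 and 5.41 on the WT veh arrays, 4.88, 7.39, 6.11 and 5.35 on those of WT NR, 3.89, 4.55, 4.69 and 4.33 for Atm-/- veh and 6.80, 4.79, 5.38 and 4.43 for Atm-/- NR. WT NR 2 and Atm-/- NR 1 stood above all others, and all Atm-/- veh arrays lay below all WT veh arrays. Its differences were -0.73 in Atm-/- veh against WT veh, 0.84 in WT NR against WT veh, 0.99 in Atm-/- NR against Atm-/- veh and -0.58 in Atm-/- NR against WT NR, each with an SE of 0.53. Over the alternatives they ran from -0.84 to -0.18, 0.32 to 1.66, 0.34 to 1.40 and -1.10 to -0.10, and 0 of them were called. The Col5a2 probe was above background on 4 arrays of every other group but on 1 Atm-/- NR array. The lowest signal among probes well above background was 4.69 to 5.34 on the Atm-/- NR arrays and 3.32 to 3.71 on those of Atm-/- veh. Both differences of Atm-/- NR are therefore limited by signals near background. Col5a1, which forms type V collagen with Col5a2, had the lowest p of the collagen genes in Atm-/- veh against WT veh, at -0.63 ± 0.17 (adjusted p = 0.189). It ranged from 9.57 to 10.02 in Atm-/- veh and from 10.17 to 10.80 in WT veh, without overlap.
The median difference of the 10 kept fibrillar genes was -0.28 in Atm-/- veh against WT veh, -0.30 in WT NR against WT veh, 0.21 in Atm-/- NR against Atm-/- veh and -0.08 in Atm-/- NR against WT NR. Over the alternatives these medians ran from -0.37 to -0.20, -0.42 to -0.14, 0.04 to 0.29 and -0.16 to 0.05. The remaining kept members were Col2a1, Col5a3, Col11a1, Col11a2 and Col27a1. Of these, Col5a3 reached 10.54 on Atm-/- veh 3 against 9.02 to 9.74 on the other Atm-/- veh arrays.

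Type IV genes did not pass the test either. The chains of Col4a1 and Col4a2 form the common basement membrane network and are coded side by side. Col4a1 read 8.97, 8.30, 8.37 and 9.37 on the WT veh arrays, 8.25, 8.72, 8.63 and 8.28 on those of WT NR, 8.56, 8.25, 10.40 and 8.80 for Atm-/- veh and 8.13, 8.59, 8.68 and 7.89 for Atm-/- NR. Col4a2 read 9.65, 9.07, 9.06 and 9.94 on the WT veh arrays, 9.53, 10.07, 9.43 and 9.38 on those of WT NR, 9.34, 9.32, 10.33 and 9.42 for Atm-/- veh and 9.62, 9.62, 9.57 and 9.53 for Atm-/- NR. For both genes Atm-/- veh 3 was the highest of all arrays, and the groups overlapped in each comparison. On that array the 10 endothelial markers were on average 0.49 above their means and the 3 markers of red blood cells 2.33 above, against at most 0.22 and 0.29 on the others, and the part of these in the result was not tested. Col4a1 had the largest difference of the class in Atm-/- NR against Atm-/- veh, -0.68 ± 0.39 (adjusted p = 0.276), which was -0.07 with the arrays that have Y-gene signal, a set without Atm-/- veh 3.
Col4a5 and Col4a6 lie on the X chromosome and code for chains of other basement membranes. Col4a5 read 8.39, 8.20, 8.43 and 8.81 on the WT veh arrays, 8.13, 8.44, 8.07 and 8.15 on those of WT NR, 7.90, 8.25, 8.13 and 8.08 for Atm-/- veh and 8.18, 8.18, 8.38 and 8.10 for Atm-/- NR. Only Atm-/- veh 2 reached into the range of WT veh, and the difference of Atm-/- veh was -0.37 ± 0.13 (adjusted p = 0.24), or -0.38 with the arrays that have Y-gene signal. A dimmer probe of Col4a5 gave -0.03. Col4a6 lay between 7.28 and 8.06 on all arrays. The median of the 4 type IV genes was 0.01 in Atm-/- veh against WT veh, -0.20 in WT NR against WT veh, -0.01 in Atm-/- NR against Atm-/- veh and -0.02 in Atm-/- NR against WT NR. Without WT veh 4 the first 2 were 0.07 and -0.11, and over all alternatives the 4 medians ran from -0.26 to 0.11, -0.31 to -0.03, -0.10 to 0.12 and -0.11 to 0.11, so that only the second kept its sign.

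**Figure D2:**
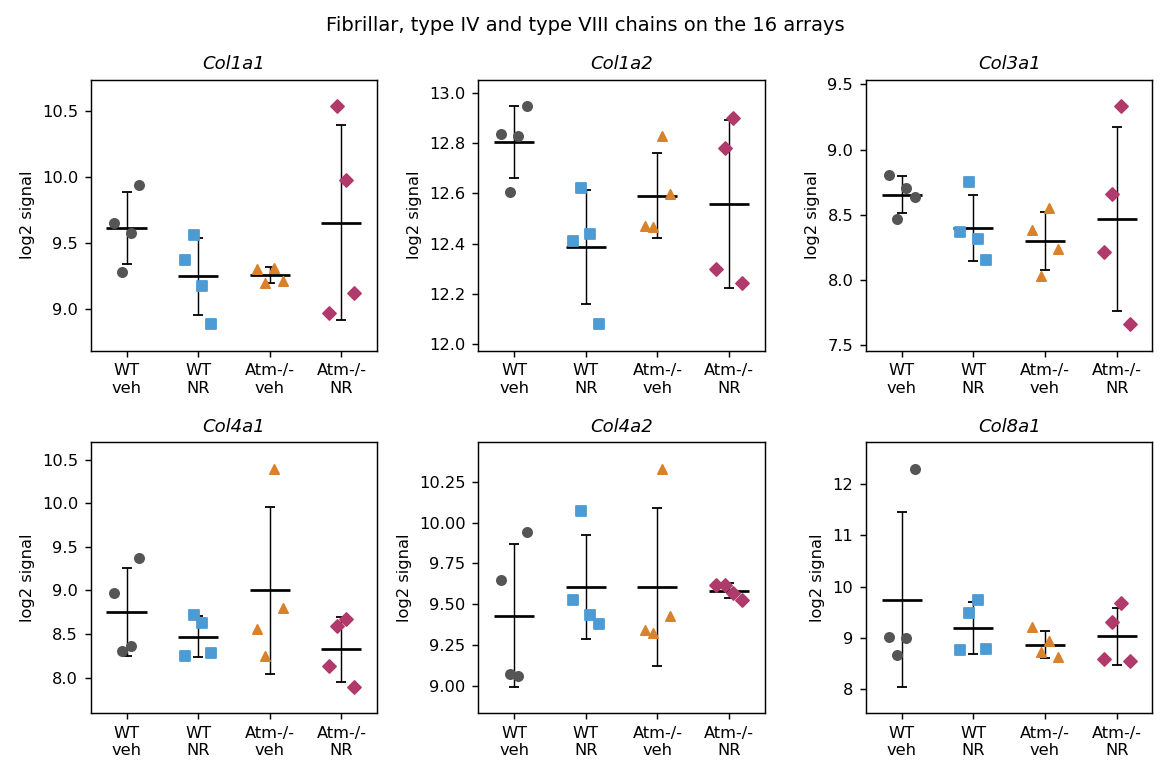
Log2 signal (y axis) of type I (Col1a1, Col1a2), type III (Col3a1), type IV (Col4a1, Col4a2) and type VIII (Col8a1) genes on each array, by group (x axis), with the mean as a line and the SD as bars. Groups overlap in each panel, and single arrays stand out for Col4a1 (10.40 on Atm-/- veh 3) and Col8a1 (12.30 on WT veh 4).

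Of the other classes, the short-chain network collagens were high on WT veh 4. Type VIII collagen, a network former of vessel walls and of the layer under the corneal endothelium, is coded by Col8a1 and Col8a2. Col8a1 was 12.30 on WT veh 4 and 8.55 to 9.75 on the other 15 arrays. Col8a2 was 10.55 on WT veh 4 and 7.31 to 8.78 on the others. Their differences in WT NR against WT veh were -0.55 and -1.18, and 0.30 and -0.63 without WT veh 4, so that for Col8a1 the sign turned with 1 array. Col22a1 behaved likewise by its brighter probe, at 9.58 on WT veh 4 and 7.14 to 7.59 elsewhere. Col18a1, the source of endostatin in vessel basement membranes, lay within 12.23 to 13.004 on all arrays, and its 4 differences were at most 0.14 in size with all arrays. With WT veh 4 left out, Col18a1 was -0.29 ± 0.12 (adjusted p = 0.267) in Atm-/- veh against WT veh and -0.23 ± 0.12 in WT NR against WT veh. Col7a1, the anchoring fibril collagen, Col26a1, and the transmembrane genes Col13a1, Col23a1 and Col25a1 did not pass the test in any comparison.

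Across all 37 kept collagen genes, 2 were called in Atm-/- NR against Atm-/- veh (Col6a5 higher and Col9a2 lower), beside 11.5% of all 16737 genes tested. Col6a5 passed the detection filter only through Atm-/- NR, the group where it was called higher. In Atm-/- veh against WT veh 0 were called (0.0538% of all genes), in WT NR against WT veh 0 (0% of all genes) and in Atm-/- NR against WT NR 0 (0.0597%), all by limma. The difference between the NR effects was called for 0 (0%). At an unadjusted p under 0.05 these 4 comparisons had 6 (16.8% of all genes), 5 (8.84%), 2 (4.34%) and 1 (5.96%), and Atm-/- NR against Atm-/- veh had 6 (30.5%). Without WT veh 4 the difference between the NR effects had 3 (9.03% of all genes). The methods' t-test after Benjamini-Hochberg adjustment gave 2 in Atm-/- NR against Atm-/- veh, beside 3041 of the 37253 kept probes. It gave 0 in the other group comparisons, beside 2 probes in Atm-/- veh against WT veh, 0 in WT NR against WT veh and 10 in Atm-/- NR against WT NR. Without adjustment, at a p threshold alone, it gave 6 in Atm-/- veh against WT veh (13.3% of all genes) and 6 in Atm-/- NR against Atm-/- veh (33.8%). It gave 3 in WT NR against WT veh (8.08%) and 2 in Atm-/- NR against WT NR (6.98%). The study's own calls also required a minimum z-ratio, a limit on the false discovery rate and an ANOVA, which were not applied here. Among the mouse genes that the study lists for their large scores are Col1a1 and Col6a1, neither of which limma called here.

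In number of signs, 29 of 37 collagen genes had a negative difference in Atm-/- veh against WT veh (55.4% of all genes), with a median of -0.29 (-0.03 over all genes). In WT NR against WT veh 30 of 37 were negative (51.5% of all genes), with a median of -0.28 (-0.01 over all genes). Both comparisons share the WT veh arrays, and without WT veh 4 the counts were 26 (median -0.16) and 28 (median -0.21), beside 56.6% and 53.4% of all genes. With the arrays that have Y-gene signal, 26 were negative in WT NR against WT veh (median -0.15), beside 52.2% of all genes. Atm-/- NR against Atm-/- veh was even, with 20 negative and 17 positive (45.1% of all genes negative), and Atm-/- NR against WT NR had 24 negative (47.2%). The NR effect in Atm-/- minus that in WT was negative for 11 (43.4%), with a median of 0.18, and for 14 without WT veh 4. It was negative for 15 (median 0.06; 42.8% of all genes) with the arrays that have Y-gene signal, and for 17 (median 0.12; 46.3% of all genes) after scaling to the 75th percentile. Groups did not overlap for Col5a1, Col5a2, Col6a3 and Col26a1 in Atm-/- veh against WT veh (4 genes; 8.74% of all genes), all of them lower (4.84% of all genes). They did not for Col6a1, Col8a2 and Col22a1, lower, and Col27a1, higher, in WT NR against WT veh (4.58%). The dimmer probes of 2 of these genes, detected on all 16 arrays, did not go lower. That of Col22a1 had 0.63 in WT NR against WT veh, and that of Col26a1 had 0.002 in Atm-/- veh against WT veh. Without WT veh 4, which leaves fewer arrays to overlap, Col7a1 was added in the first comparison (5 genes; 16.5% of all genes), and Col7a1 and Col9a2, lower, in the second (6 genes; 10.3%). The 3 such genes in Atm-/- NR against Atm-/- veh were Col6a5, Col9a1 and Col9a2 (26.3%), and the 2 in Atm-/- NR against WT NR were Col6a4 and Col6a5 (4.53%). For both Col6a4 and Col6a5, only 2 WT NR arrays were above background.

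**Figure D3:**
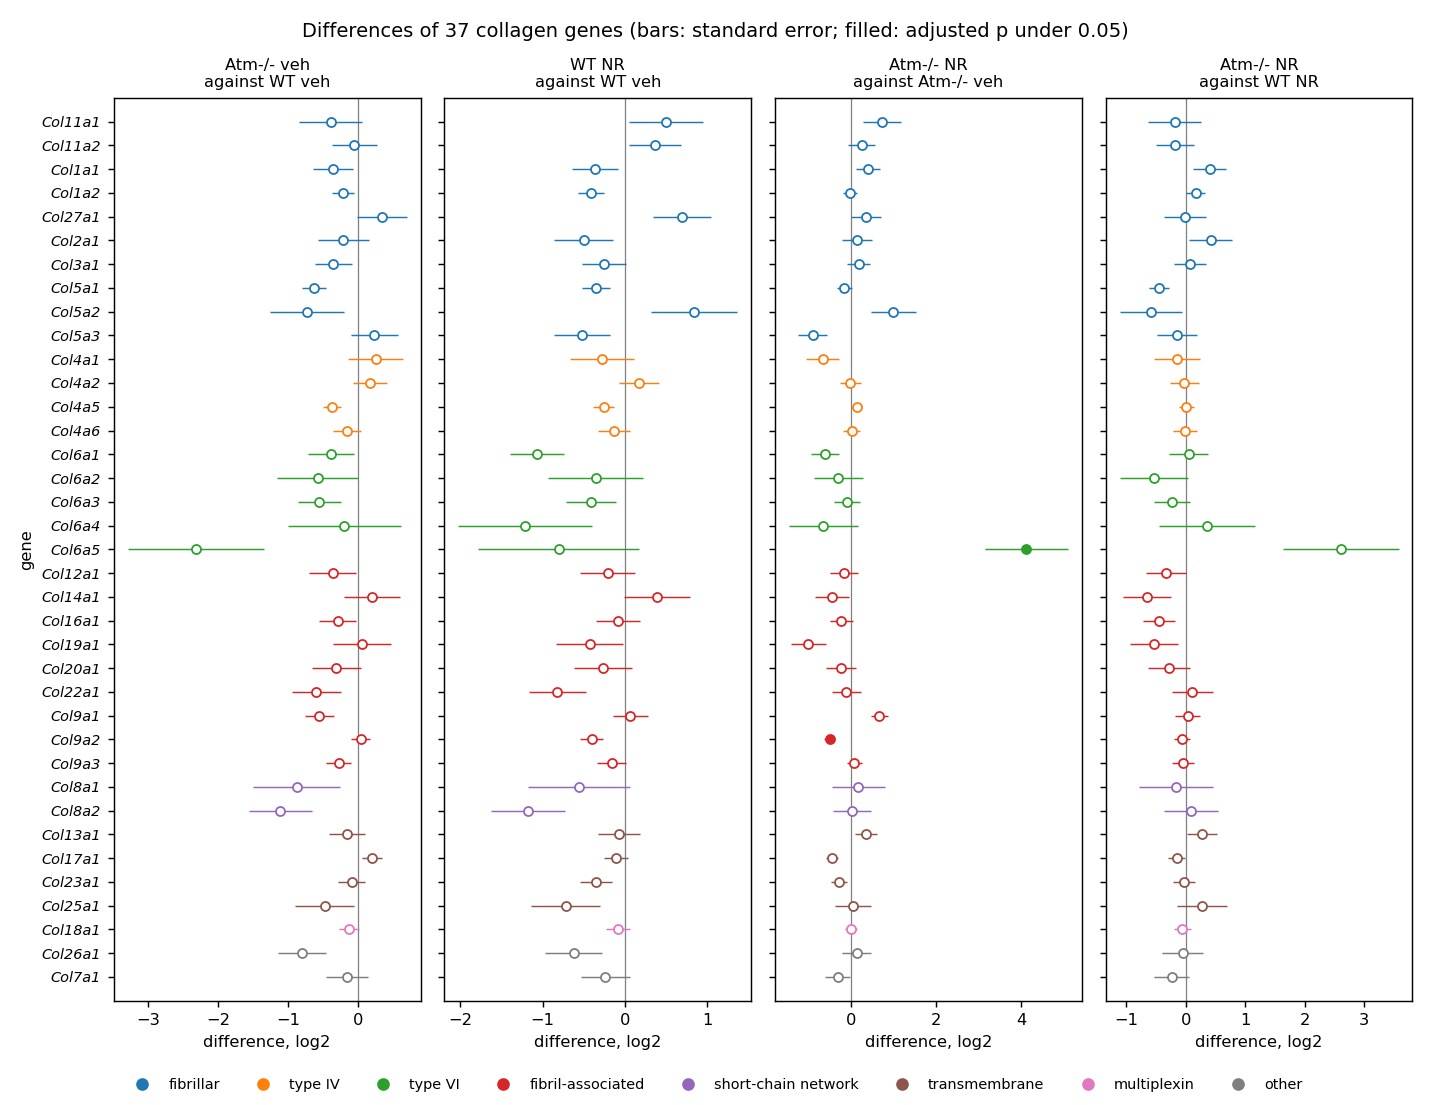
Differences in log2 signal (x axis) of the 37 kept collagen genes (y axis, coloured by class) in the 4 group comparisons, with the standard error as bars and filled points for an adjusted p under 0.05. Only Col6a5 (4.12) and Col9a2 (-0.51) in Atm-/- NR against Atm-/- veh are filled, and in both comparisons with WT veh most points lie below 0 (29 and 30 of 37).

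Arrays with high collagen signals also differed in markers of cell types. WT veh 4 had the highest value of all 16 arrays for 15 of the 37 collagen genes, among them Col6a1, Col6a3, Col6a4, Col8a1, Col8a2 and Col22a1, and the mean deviation of all collagen genes was 0.62 there and between -0.26 and 0.20 on the others. Its 14 markers of leptomeningeal fibroblasts, the cells of the inner meninges, were 0.77 above their means, and its cerebellar neuron markers at -0.49. On Atm-/- NR 3, the type VI genes were 0.72 and the leptomeningeal markers 0.73 above their means, and Col3a1 and Col1a2 had the highest values of their group. The leptomeningeal list ranged from 0.17 to 0.77 in WT veh and from -0.44 to -0.12 in WT NR. Among the mutants, it ranged from -0.22 to 0.44 for Atm-/- veh and from -0.70 to 0.73 for Atm-/- NR. In WT NR against WT veh 14 of 14 of its genes had a negative difference (median -0.60, and -0.46 without WT veh 4). Of these, 0 passed the test (0% of all genes), with 4 at an unadjusted p under 0.05 (8.84% of all genes). The groups did not overlap for 8 of the 14 (4.58% of all genes), and for 8 without WT veh 4 (10.3%). Mural cell markers lay between -0.19 and 0.24 on all arrays and astrocyte markers between -0.32 and 0.21. In Atm-/- NR against Atm-/- veh, Pdgfrb, a receptor of mural cells, fell by 0.45 ± 0.10 (adjusted p = 0.0188), Car8, a Purkinje cell gene, rose by 1.10 ± 0.31 (adjusted p = 0.0417), and limma called 0 genes of the other 6 marker lists, with 13 of the 68 kept markers at an unadjusted p under 0.05 (11.5% of all genes called and 30.5% at that p). The part of these markers in the collagen differences was not tested. In whole tissue, fewer cells of a type and less RNA per cell cannot be told apart.

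**Figure D4:**
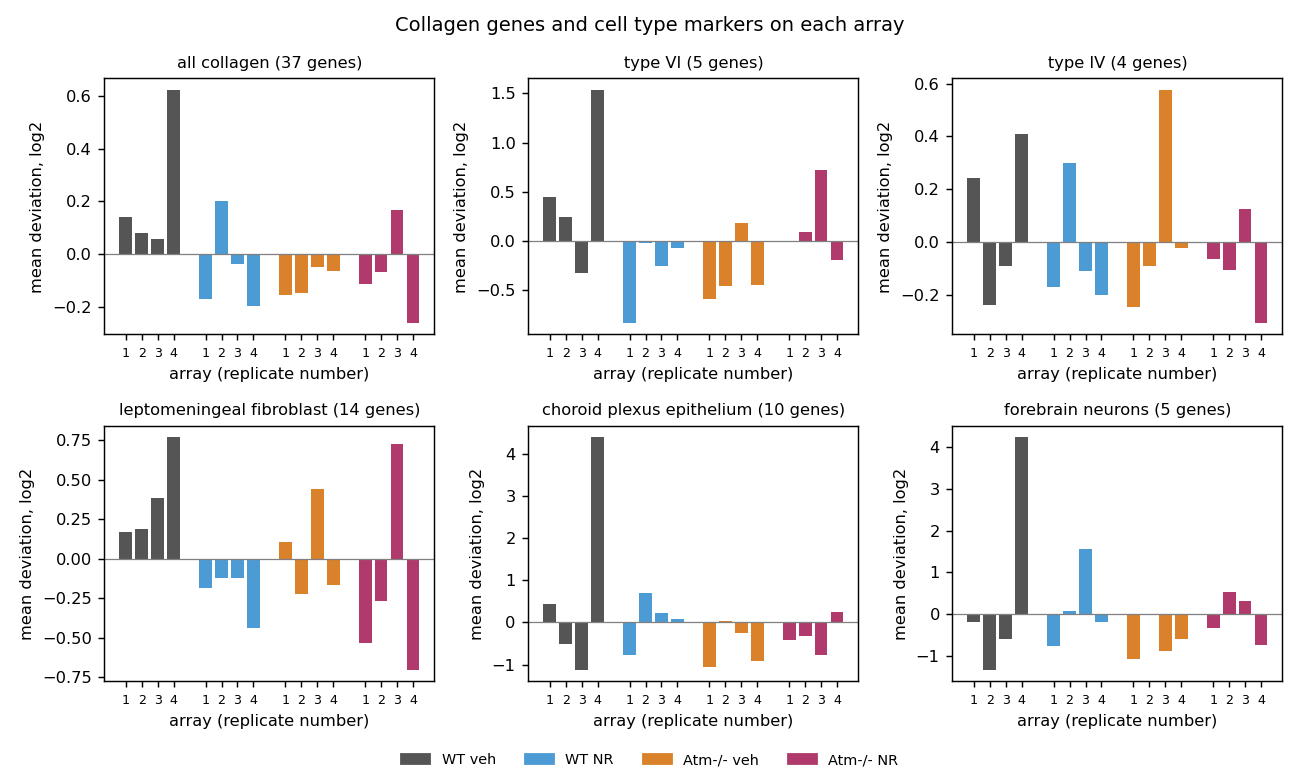
Mean deviation (y axis, log2) of a list's genes from their means over all arrays, for each array (x axis, replicate number) by group. WT veh 4 is the highest array for all collagen genes (0.62), type VI genes (1.53), choroid plexus (4.41) and forebrain markers (4.24), and Atm-/- veh 3 for type IV genes (0.58).

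Chains of types I, III and IV varied together over the arrays once group means were removed. The permutations for all pairs exchanged deviations freely over 16 arrays, although removing 4 group means leaves 12 degrees of freedom. Their p values are therefore somewhat too small. Over 16 arrays, Col1a1 and Col1a2 had Pearson's r = 0.834 (permutation p = 6e-05, adjusted p = 1e-04) and Spearman's rho = 0.8294 (permutation p = 0.00016, adjusted p = 0.000267). Col1a2 and Col3a1 had r = 0.851 and rho = 0.882, each with p = 1e-05 (adjusted p = 5e-05), the smallest that 100000 permutations can give. Col4a1 and Col4a2 had r = 0.865 (permutation p = 4e-05, adjusted p = 1e-04) and rho = 0.838 (p = 0.00015, adjusted p = 0.000267). These relations held within the slide of WT arrays (r = 0.937, 0.825 and 0.894) and within that of Atm-/- arrays (0.803, 0.892 and 0.931), with 8 arrays each. Without the 2 arrays farthest from the median, r was 0.883, 0.826 and 0.694.
Col6a1 and Col6a2 had r = 0.521 (permutation p = 0.0412, adjusted p = 0.0412) and rho = 0.468 (permutation p = 0.0688, adjusted p = 0.0688). Without WT veh 4 and Atm-/- NR 3, r was 0.277, so the relation rests on those arrays, and it was 0.356 among WT and 0.913 among Atm-/- arrays. A pair that neither assembles nor shares a locus, Col1a2 and Col4a1, had r = 0.702 (permutation p = 0.00146, adjusted p = 0.00182) and rho = 0.777 (permutation p = 0.00065, adjusted p = 0.000812), so a common variation was not limited to partner chains. Its r was 0.651 and 0.73 within the slides and 0.723 without 2 arrays. In all 5 pairs were computed, and all genes of an array share its RNA.

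The genes that make and handle collagen were counted in 5 lists. In Atm-/- NR against Atm-/- veh, 3 of 26 kept genes of collagen synthesis and processing were called, all lower (11.5% of all genes called). They were Plod3, a hydroxylase of lysine in collagen (-0.31 ± 0.07, adjusted p = 0.0188), P3h3, of the prolyl 3-hydroxylase family (-0.50 ± 0.12, adjusted p = 0.0228), and Mia3, which loads procollagen for export from the endoplasmic reticulum (-0.41 ± 0.08, adjusted p = 0.0134). The median of that list was 0.04, with 14 of 26 differences positive. Serpinh1, the collagen chaperone, had 0.29 ± 0.10 (adjusted p = 0.0766). Of 16 basement membrane partners, Lamc1, the common gamma chain of laminins, fell by 0.57 ± 0.11 (adjusted p = 0.0125). Of 11 collagenases and inhibitors, Ctsk, a protease that cuts collagen, rose by 0.53 ± 0.13 (adjusted p = 0.0283). Among 10 collagen receptors and 9 small leucine-rich proteoglycans 0 were called by limma, with 0 and 1 at an unadjusted p under 0.05. In the other comparisons 0 of the 72 kept genes of the 5 lists were called by limma, with 13 at an unadjusted p under 0.05 in Atm-/- veh against WT veh (16.8% of all genes), 6 in WT NR against WT veh (8.84%), 2 in Atm-/- NR against WT NR (4.34%) and 5 for the difference between the NR effects (5.96%). In WT NR against WT veh all 9 proteoglycan genes had a negative difference (median -0.37, and -0.23 without WT veh 4), as had 17 of 26 synthesis genes (median -0.09), 13 of 16 basement membrane partners and 7 of 10 receptors. The last 2 were 10 of 16 and 5 of 10 without WT veh 4.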

How the data were processed

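The intensity deposited by the authors is the processed signal of Agilent Feature Extraction (version 12.0.3.1), corrected for local background but on a separate scale for every array. The authors also deposited a score per spot, a z-score scaled within each array, which served as an alternative. Per the study's methods, RNA of low integrity was discarded before hybridization.

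Accessions of 32994 of 56605 probes matched a gene in RefSeq (GRCm38.p6), which gave the symbols. Control spots and spots marked as outliers were set aside, signals were log2 transformed and quantile normalized, and the spots of a probe were averaged. Only probes that all 4 arrays of some group detected entered the tests, which left 37253 probes for 16737 named genes, after 788 were dropped for a missing value. The number of arrays limits the precision. The tests used limma (3.58.1, R 4.3.3), with 4 group means, 12 residual degrees of freedom and Benjamini-Hochberg adjustment over all probes, and called at an adjusted p under 0.05. The model was tested on simulated data. Tables were read with data.table (1.17.8), correlations used scipy (1.17.1) with 100000 permutations, and figures matplotlib.

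The collagen genes, classes and lists were chosen with earlier results of these data known. Genes were named by rule: values on every array are given for called members, the largest difference of the fibrillar, type IV and type VI classes in each group comparison, and the main chains of types I, III, IV and VI. Other genes and probes, and the description of WT veh 4, were chosen after their values were seen. Marker lists covered leptomeningeal fibroblasts, choroid plexus epithelium, endothelium, mural cells, cerebellar neurons, forebrain neurons, astrocytes and red blood cells. Alternatives were scaling to the 75th percentile, normexp (offset 50), the z-scores, other filters, only the arrays compared, the replicate number as a block, the arrays with Y-gene signal, the methods' t-test, other probes for a gene, and each array left out.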

Additional observations from a re-analysis of the deposited data

Results flagged for a closer look

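Of 52 sets of 4 arrays tested over the named collagen genes, 4 held an array whose gap to the next exceeded Dixon's critical value, where chance gives about 1 in 20. Col4a2 was 10.33 on Atm-/- veh 3, with the next array of the group at 9.42. Col6a1 was 10.24 on Atm-/- NR 3, with the next at 9.39. Col6a2 was 8.67 on WT NR 3, with the next at 6.31. Col6a4 was 9.23 on WT veh 4, with the next at 5.29. A second Col6a5 probe, outside the tested probes, was above background on 2 Atm-/- NR arrays and on 0 arrays of the other groups.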

How the results depend on the processing

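The count of called collagen genes in Atm-/- NR against Atm-/- veh (2) was 0 with only the arrays with Y-gene signal and between 0 and 4 when each array was left out in turn: 0 without Atm-/- veh 1 or Atm-/- NR 3, 1 (Col6a5) without Atm-/- veh 3, Atm-/- veh 4, Atm-/- NR 2 or Atm-/- NR 4, and 4 without WT veh 4, when 15.1% of all genes were called. The methods' t-test at a p threshold alone, without adjustment, gave 6 in Atm-/- veh against WT veh (13.3% of all genes) and 6 in Atm-/- NR against Atm-/- veh (33.8%). It gave 3 in WT NR against WT veh (8.08%) and 2 in Atm-/- NR against WT NR (6.98%). The fibrillar median in Atm-/- veh against WT veh was -0.20 with normexp and -0.37 to -0.26 with an array left out. The type VI median in WT NR against WT veh ranged from -1.19 to -0.19 with an array left out. No called value changed its sign. Of 779 values, 754 were counted as the same, 14 as moved and 11 as weaker. The 754 include class medians that turned their sign, so this count does not say that their direction held. The cause of the shifts was not tested. With the replicate number as a block, 2 collagen genes were called in Atm-/- NR against Atm-/- veh and 0 elsewhere. Same-numbered arrays had correlations of -0.15 to 0.20, and at most 3 of 8 arrays correlated best with their own number. In Atm-/- NR against WT NR the correlations ran from 0.05 to 0.20. Whether the numbers do more than name the mice cannot be told from these values. A slide block could not be fitted apart from the group means, and Col6a5 gave no value where only probes detected on all arrays were kept. Signals near background limit Col6a5, Col14a1, Col25a1, Col5a2 and Col6a4.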
